A study of Mus musculus with 2 samples.

Results

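The sorting nexin (Snx) and Vps genes of the mouse were taken as every protein-coding gene whose symbol begins with Snx or Vps followed by a digit. The rule found 65 of 21938 protein-coding genes in the GENCODE M21 annotation of mm10, of which 30 are Snx and 35 are Vps genes. The mapped mark was H3K79me2, dimethylation of lysine 79 of histone H3, which the methyltransferase Dot1l places on the early part of genes that are being transcribed. Chromatin immunoprecipitation and sequencing (ChIP-seq) was done on macrophages that were differentiated from bone marrow of C57BL/6J mice and left unstimulated. The samples form 1 group of 2 biological replicates with 1 shared control experiment, 10 ng of DNA went into each library, and no other condition is compared. The labels give both replicates 1 donor identifier, do not record sex, and do not say whether separate animals or cultures were used, so the spread between the replicates may be technical.

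Endosomes sort proteins that cells take up or make, and return some to the plasma membrane or the trans-Golgi network while sending others to the lysosome. Sorting nexins carry a PX domain that binds phosphoinositides on endosomal membranes, and several of them bend the membrane into tubules or hold cargo. Vps proteins were named for yeast mutants that missort vacuolar proteins, and they form the retromer, the tethers of endosomes and lysosomes, and the ESCRT machinery that buries receptors in multivesicular bodies. Macrophages depend on these routes because they take up and degrade large amounts of material and recycle many surface receptors. The rule works by name, so it also took Vps72, a subunit of a chromatin remodelling complex and not an endosomal protein.

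For each gene the first 3 kb after the outermost start in the annotation were taken as its window (the whole gene where it is shorter), and the gene was counted as marked where peaks of a list covered 200 bp or more of it. Library depth is unknown because the files list peaks without reads. A gene counted as unmarked has too little covered by called peaks, and the mark may still be present below what was called. Values are given for the list of replicate 1, for the list of replicate 2 and for the replicated list, which per the deposited notes rests on alignments of the pair of libraries together. The list of replicate 1 covers 63.5 Mb, that of replicate 2 covers 114 Mb and the replicated list 93.2 Mb. How strongly a peak exceeded the control is given by the fold that the authors computed for it, used here to rank, describe and filter peaks within a list. The macrophage label was checked on 10 macrophage markers, of which 9 were marked in the replicated list. The tenth, Csf1r, had covered bases elsewhere in the gene. None of 22 marker genes of T and NK cells, B cells, neutrophils, dendritic cells and fibroblasts had a covered base.

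The sequences next to the starts are shown for related members that differed in the mark and for the member with the highest fold. The 250 bp upstream of the outermost start in either annotation, GENCODE M21 or RefSeq, are printed 5′ to 3′ on the strand of the gene, with CpG dinucleotides in capitals. They were read from the RefSeq GRCm38.p6 genome, and no exon of GENCODE M21 lies in any of these 5 windows. The GENCODE start, from which all distances below are counted, lies 190 bp inside the RefSeq gene for Snx30. For Snx21 the RefSeq start lies 198 bp inside the GENCODE gene. Snx30 and Snx7 are close relatives with 10 and 24 CpGs in the printed windows, and only Snx30 was marked. The 250 bp before the GENCODE start of Snx30 hold 18 CpGs, so its count depends on the start used. Snx20 and Snx21 are the pair that shares the PX-B domain, with 5 and 25 CpGs, and here the CpG-poor Snx20 was the marked one. Vps26a had the highest fold of the 65 genes. The Snx30 window is at chr4:59805400-59805649 on the plus strand, and that of Snx7 at chr3:117868937-117869186 on the minus strand. The Snx20 window is at chr8:88636129-88636378 on the minus strand, and that of Snx21 at chr2:164785573-164785822 on the plus strand. The Vps26a window is at chr10:62486806-62487055 on the minus strand.
Snx30: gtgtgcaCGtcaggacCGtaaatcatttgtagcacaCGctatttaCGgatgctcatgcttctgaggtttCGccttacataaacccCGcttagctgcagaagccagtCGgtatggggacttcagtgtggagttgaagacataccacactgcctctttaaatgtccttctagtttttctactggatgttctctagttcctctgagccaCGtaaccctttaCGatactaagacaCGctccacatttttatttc
Snx7: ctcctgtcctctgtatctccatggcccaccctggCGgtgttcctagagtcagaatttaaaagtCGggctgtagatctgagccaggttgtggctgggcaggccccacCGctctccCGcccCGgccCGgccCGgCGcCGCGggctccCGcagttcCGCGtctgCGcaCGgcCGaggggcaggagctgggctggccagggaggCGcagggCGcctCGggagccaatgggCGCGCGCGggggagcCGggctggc
Snx20: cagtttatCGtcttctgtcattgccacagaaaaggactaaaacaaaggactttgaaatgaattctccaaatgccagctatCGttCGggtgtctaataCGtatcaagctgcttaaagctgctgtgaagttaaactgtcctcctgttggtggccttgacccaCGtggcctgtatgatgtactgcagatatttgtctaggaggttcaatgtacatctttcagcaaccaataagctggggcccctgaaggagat
Snx21: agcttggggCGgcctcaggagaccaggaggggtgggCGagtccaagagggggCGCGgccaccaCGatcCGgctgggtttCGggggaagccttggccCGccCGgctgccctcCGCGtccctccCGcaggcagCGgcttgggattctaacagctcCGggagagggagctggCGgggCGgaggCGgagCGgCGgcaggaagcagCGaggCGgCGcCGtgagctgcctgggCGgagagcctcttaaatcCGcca
Vps26a: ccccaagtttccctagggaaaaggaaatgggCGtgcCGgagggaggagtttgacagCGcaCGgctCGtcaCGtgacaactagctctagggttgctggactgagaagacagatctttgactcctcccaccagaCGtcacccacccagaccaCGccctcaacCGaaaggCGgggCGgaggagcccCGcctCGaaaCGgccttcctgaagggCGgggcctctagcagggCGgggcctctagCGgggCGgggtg

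Most of the 65 genes were marked. In the replicated list 55 of them (84.6%) were marked, where the share over all 21938 coding genes was 30.3%. The list of replicate 1 marked 53 (81.5%) against 27.2% of all coding genes, and that of replicate 2 marked 60 (92.3%) against 35.6%. All 53 were also marked in replicate 2, and 27.2% of all coding genes were marked in both. By name, 24 of 30 Snx genes and 31 of 35 Vps genes were marked in the replicated list. A start was counted as CpG-rich where the bases within 500 bp of it were at least 50% G and C and held at least 0.6 times the CpGs that this composition predicts. Of the members with such a start 43 of 49 were marked (87.8%), beside 54.1% of all coding genes with one. Among genes that overlap no other coding gene 38 of 43 members were marked (88.4%), beside 28.0% of all such genes. No member lay near the 200 bp limit in the replicated list: windows had either no covered base or, from Snx1 upward, at least 1088 bp.

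The functional groups are small, and their counts are given for the replicated list. In that list 84.6% of all members and 30.3% of all coding genes were marked. All members of the retromer core (4 genes), the retriever (2), the HOPS and CORVET tethers (8), the GARP and EARP tethers (5), the ESCRT ATPase (2), the VPS13 lipid transfer proteins (4) and the sorting nexins with a PXA domain (4) were marked. The 8 genes counted here with HOPS and CORVET include Vps33b, the relative of Vps33a that works with Vipas39. The unmarked genes were 2 of 12 SNX-BAR genes, 2 of 10 other PX genes, 1 of 3 with a FERM domain, the 1 gene with an MIT domain, 3 of 7 genes of ESCRT-I and ESCRT-II, and 1 of 3 other Vps genes. These counts depend on the list. Replicate 1 did not mark Vps8 of CORVET or Snx14 of the PXA group. Replicate 2 also marked Snx33, Snx15, Vps25, Vps28 and Vps9d1. A difference between the groups in marking was not tested. The median share of a marked gene that lay under the replicated list was 72.0% in the SNX-BAR group and 51.7% in the retromer core, but 6.46% in the VPS13 group. Share depends on gene length, and the VPS13 genes are among the longest of the set. In covered bases the medians were 23096 bp for SNX-BAR, 10705 bp for the retromer core and 14772 bp for VPS13, so the last 2 changed order.

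**Figure D1:**
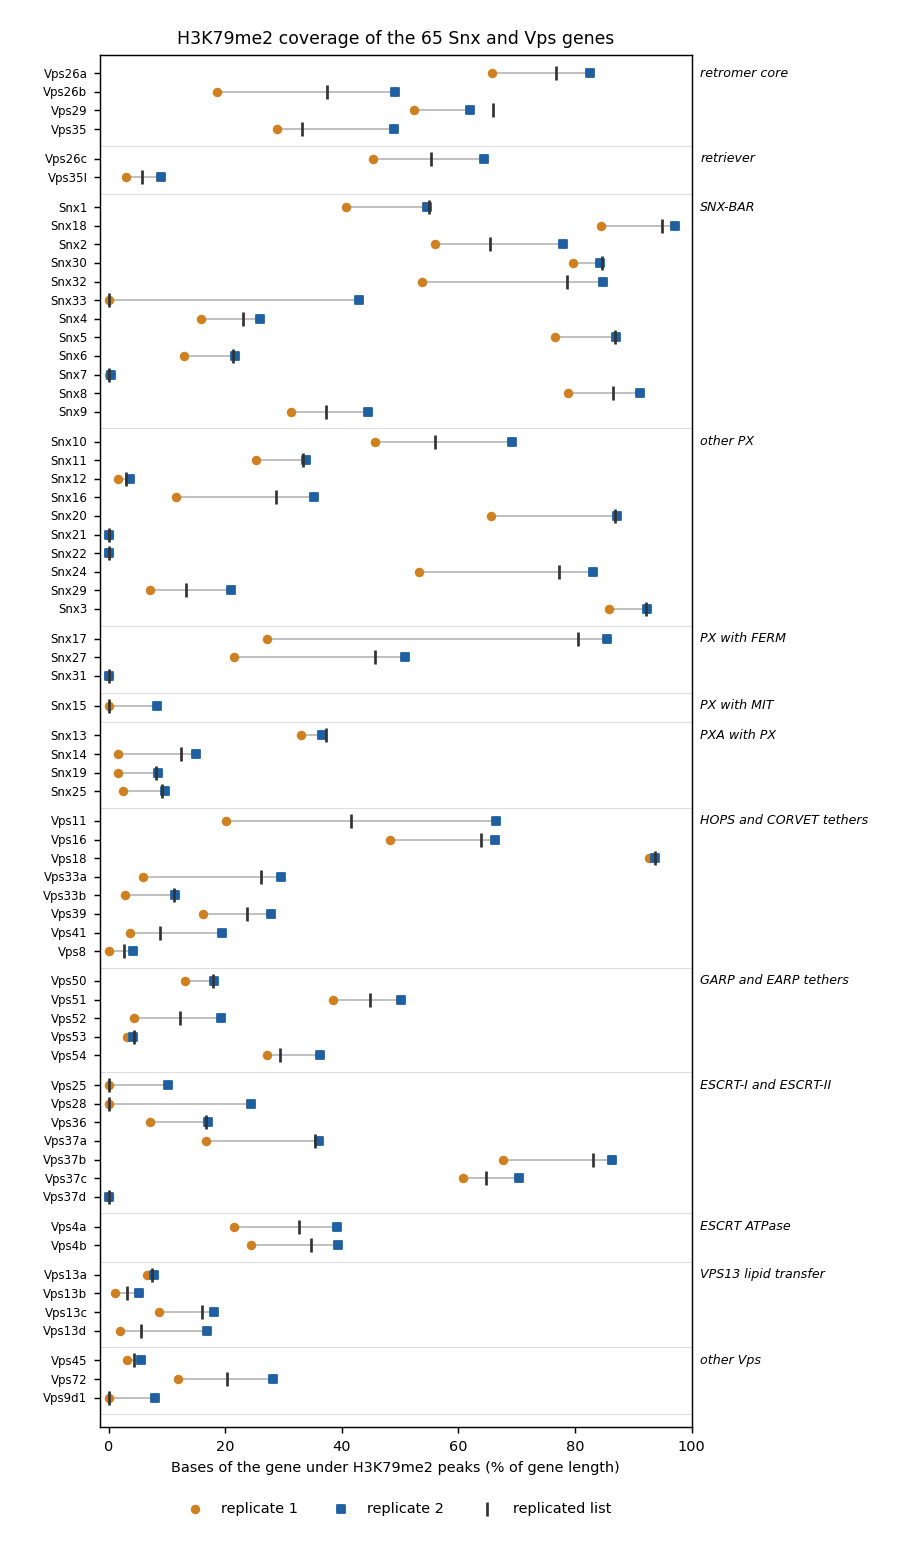
Share of each of the 65 genes covered by H3K79me2 peaks, in percent of gene length, by functional group. Circles are replicate 1, squares replicate 2 and bars the replicated list; no gene has a square to the left of its circle, and the SNX-BAR genes reach 94.9% while no VPS13 gene exceeds 15.9% in the replicated list.

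The retromer core is a trimer of Vps35, Vps29 and a Vps26 subunit, and it pulls cargo out of endosomes before they mature to lysosomes. Vps26a, 31571 bp long at chr10:62455235-62486805, had 20755 bp covered in replicate 1, 26060 bp in replicate 2 and 24215 bp in the replicated list. Its mark in the replicated list was a single peak of 24215 bp, chr10:62462231-62486445, which began 360 bp inside the gene and was 3.27% exonic. Its fold of 33.7 ranked 32 among the 6658 marked coding genes. Vps26a was therefore covered over most of its length in both replicates, chiefly in introns.

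The other retromer genes were marked over smaller shares. Vps26b, the alternative subunit in the place of Vps26a, had 4140, 10942 and 8344 bp covered in replicate 1, replicate 2 and the replicated list, which is 37.4% of the gene in the last. Its fold was 11.5, so the 2 alternative subunits stood far apart in rank, at 32 and 3454. Vps35, the long scaffold of the trimer, had 11370, 19306 and 13066 bp covered (33.2% in the replicated list, fold 23.0). Vps29, the small subunit that binds regulators, had 5553, 6577 and 7002 bp (66.0%, fold 22.3). Replicate 2 exceeded replicate 1 in each of the 4 genes, by 1.18 to 2.64 times.

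The retriever is a related trimer that returns integrins and other receptors to the surface. Vps26c had 13159, 18708 and 16054 bp covered (55.3% in the replicated list, fold 24.9). Vps35l, its scaffold, had 3067, 9237 and 5838 bp (5.68%, fold 12.9). In the replicated list these were 1 block near the start of a gene of 102741 bp.

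SNX-BAR proteins combine the PX domain with a BAR domain that senses and makes curved membrane. Snx1 and Snx2 pair with Snx5, Snx6 or Snx32 to form the coat of the tubules that leave endosomes. All 5 genes were marked in both replicates. Snx2 had 24927, 34708 and 29124 bp covered (65.4% in the replicated list) and Snx1 had 15658, 21009 and 21160 bp (55.0%). Their folds were 31.4 and 24.8. In Snx1 the first covered base lay 1912 bp from the outermost start, farther than in any other marked member. The RefSeq start of Snx1 lies 1701 bp downstream of that start, so the distance depends on the annotation. In the replicated list 2742 bp of the 3 kb upstream was covered by the mark of its divergent neighbour Ciao2a.

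The partner subunits differed among themselves. Snx5 had 15911, 18080 and 18044 bp covered (86.8%), and Snx32 had 9840, 15522 and 14379 bp (78.6%). Snx6 had 6362, 10690 and 10489 bp (21.3%) in a gene of 49355 bp. Thus the covered share of Snx6 was the lowest of the 3, in all 3 lists. For Snx32, 10546 of the 14379 bp lay outside the genes that overlap it, Cfl1 and 1700020D05Rik, both of which were marked.

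Snx4 forms dimers with Snx7 or Snx30 that recycle proteins of the autophagy machinery. Snx30, 98898 bp long at chr4:59805840-59904737, had 78753, 83224 and 83675 bp covered (84.6% in the replicated list), and its fold of 32.4 ranked 68 of 6658. The covered bases of Snx30 fell into 8 blocks, the longest of 25962 bp, and reached 86780 bp from the start. Snx7, of similar length at 87290 bp, had no covered base in replicate 1 or the replicated list and 341 bp in replicate 2, which began 6377 bp from the start. Snx4 had 7715, 12683 and 11275 bp covered (23.1%). The pair of relatives that can each join Snx4 thus lay at opposite ends of the range, although both starts are CpG-rich.

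Snx9, Snx18 and Snx33 carry an SH3 domain and act in endocytosis with dynamin and actin regulators. Snx18 had 22295, 25651 and 25031 bp covered, 94.9% of the gene in the replicated list, which was the largest share of all 65 genes. Snx9 had 28291, 40312 and 33792 bp (37.3%). Snx33 had none in replicate 1, 4797 bp in replicate 2 and none in the replicated list, so its state depended on the replicate. Snx8, which acts in endosome to Golgi transport, had 38598, 44657 and 42359 bp (86.5%), most of it in 1 block of 37381 bp. Replicate 2 covered 1.16 times as many bases of Snx8 as replicate 1.

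**Figure D2:**
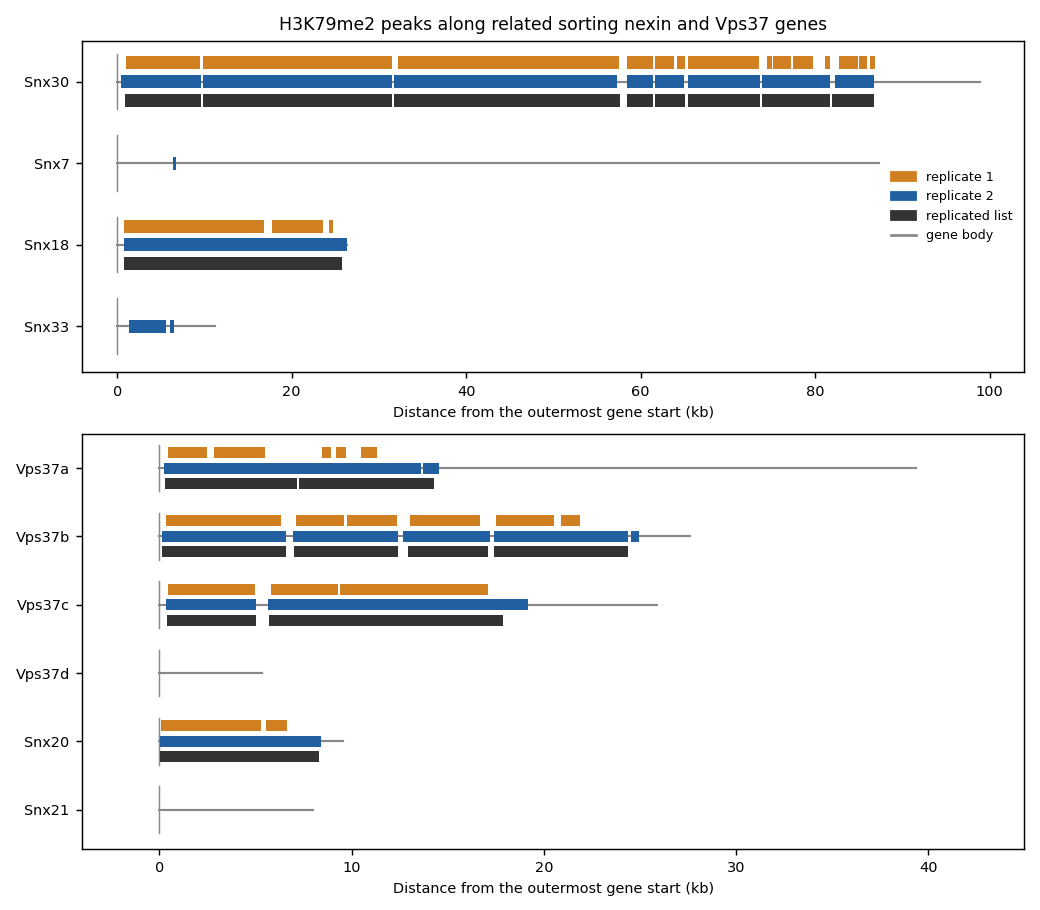
Peaks along related genes, drawn to scale against distance from the outermost start in kb, with the gene body as a line and the peaks of replicate 1, replicate 2 and the replicated list in 3 tracks. Snx30 is covered to 86780 bp in the replicated list and nearly as far or farther in the other tracks, while Snx7 holds 1 block of 341 bp in replicate 2, and Vps37d and Snx21 hold none.

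Among the other PX genes, Snx3 adapts retromer to cargo such as the Wnt carrier Wntless. Snx3 had 28603, 30779 and 30702 bp covered, which is 85.8%, 92.3% and 92.1% of its length, and a fold of 26.9. Snx12, its close relative on chromosome X, had 1867, 4539 and 3681 bp, 2.95% of a gene of 124778 bp in the replicated list. Both genes were marked in both replicates, Snx12 with 2762 bp of its window covered in the replicated list, and differed in how far the mark reached.

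Snx10 and Snx11 act on late endosomes and lysosomes, and Snx10 is needed for the bone-resorbing function of osteoclasts, which are cells of the same lineage as macrophages. Snx10 had 30539, 46196 and 37419 bp covered (56.0%, fold 24.7). Snx11 had 2522, 3392 and 3327 bp (33.3%, fold 9.21). The covered bases of Snx10 began 1177 bp from the outermost start, so it was unmarked when only the first 1 kb was considered.

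Snx20 and Snx21 share a PX-associated domain, and Snx20 binds the selectin ligand PSGL-1 of white blood cells. Snx20 had 6265, 8341 and 8300 bp covered of 9566 bp (86.8%, fold 19.1). In the replicated list they formed 1 block that began 35 bp from the start. Snx20 was 1 of the marked members without a CpG-rich start, and the bases within 500 bp of its start held 0.239 times the CpGs predicted from composition, the lowest value of all 65 genes. Snx21 and Snx22 had no covered base in any list. Each overlaps the end of a marked gene on the other strand, Acot8 and Ppib, whose marks did not reach into Snx21 or Snx22 itself.

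A pair of long sorting nexin genes held many covered bases over unlike shares. Snx24, a small PX protein encoded by a gene of 145259 bp, had 77209, 120595 and 112323 bp covered, the most of all 65 genes in the replicated list and 77.3% of its length. Snx29, a RUN domain protein with a gene of 432565 bp, had 30874, 90203 and 57297 bp (13.2%). Replicate 2 covered 2.92 times as much of Snx29 as replicate 1. Snx16, which has a coiled coil beside the PX domain, had 2558, 7847 and 6363 bp (28.6%) with a low fold of 4.50.

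Snx17 and Snx27 use a FERM domain to recognise cargo, Snx17 for the retriever and Snx27, through its PDZ domain, for retromer. Snx27 had 18208, 43321 and 38884 bp covered (45.7%). Snx17 had 1610, 5055 and 4762 bp (80.5% of a gene of 5917 bp). The third gene of the type, Snx31, had no covered base in any list. Snx15, the sorting nexin with an MIT domain, had 732 bp in replicate 2 and none in replicate 1 or the replicated list.

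Snx13, Snx14, Snx19 and Snx25 carry a PXA domain, and members of this type link the endoplasmic reticulum to other organelles. Snx13 stood apart with 33048, 36698 and 37316 bp covered (37.2%, fold 25.5). Snx25 had 2909, 11398 and 10768 bp (9.06%, fold 3.79). Snx19 had 591, 3328 and 3187 bp (8.04%, fold 7.20). Snx14 had 1010, 9265 and 7674 bp (12.3%, fold 6.20), with none of the 1010 bp of replicate 1 in its window. All covered bases of Snx14 in the replicated list also lie in Gm20537, a gene model on the same strand, and cannot be told apart from it. In these last 3 genes replicate 2 covered between 3.92 and 9.17 times as many bases as replicate 1, against 1.11 times in Snx13.

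The tethers HOPS and CORVET share the core subunits Vps11, Vps16, Vps18 and Vps33a, and bring endosomes and lysosomes together for fusion. Vps18 had 9007, 9111 and 9111 bp covered, 93.8% of the gene in the replicated list, with a fold of 29.0. Its replicates matched best of all members, sharing 98.9% of the bases covered in either. Its peak at chr2:119289343-119300386 was 48.2% exonic within the gene, and it ran past the gene's end.

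The other core subunits were marked in both replicates with less agreement. Vps16 had 9598, 13187 and 12711 bp covered (63.8%) and Vps11 had 2797, 9248 and 5785 bp (41.6%). Vps33a had 2613, 13074 and 11587 bp (26.1%), with most of the second value missing from replicate 1. Vps33b, the relative that works with Vipas39, had 631, 2529 and 2459 bp (11.1%), all within the first 3 kb. Its fold of 5.03 was below that of Vps33a, 14.3.

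Vps39 and Vps41 belong to HOPS. Vps39 had 5948, 10216 and 8687 bp covered (23.7%) and Vps41 had 5333, 29039 and 13201 bp (8.83%). Vps8, of CORVET, had none in replicate 1, 8990 bp in replicate 2 and 5708 bp in the replicated list (2.58% of 221563 bp). Vps8 was with Snx14 1 of the 2 genes marked in the replicated list and not in replicate 1.

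GARP and EARP tether endosome-derived vesicles at the Golgi and at recycling endosomes. They share Vps51, Vps52 and Vps53, and Vps54 or Vps50 completes the complex. The complex-specific subunits held the most bases: Vps54 had 22241, 29753 and 24087 bp covered and Vps50 had 13731, 18888 and 18813 bp. The shared subunits had 3608, 4709 and 4205 bp (Vps51), 493, 2167 and 1365 bp (Vps52), and 4097, 5571 and 5695 bp (Vps53). All covered bases of Vps53 lie in Glod4 as well, a gene on the same strand, so the overlap alone does not assign them. The block began 28 bp inside Vps53, and Glod4 had no other covered base and was not marked at its own start.

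ESCRT-I and ESCRT-II pass ubiquitinated receptors into the inner vesicles of endosomes. The 4 Vps37 genes encode alternative ESCRT-I subunits, and 3 of them were marked. Vps37b had 18697, 23844 and 22956 bp covered (83.1%), Vps37c had 15735, 18194 and 16791 bp (64.8%), and Vps37a had 6517, 14162 and 13896 bp (35.3%). Vps37d had no covered base in any list. Its 250 bp upstream hold 26 CpGs, beside 36 in Vps37a, 17 in Vps37b and 14 in Vps37c. The Vps37a window lies wholly within the oppositely oriented Cnot7, and 10131 of its 13896 bp lay outside the overlapping genes.

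Vps28, the remaining ESCRT-I gene, had 976 bp covered in replicate 2 and none in replicate 1 or the replicated list. Of ESCRT-II, Vps36 had 1961, 4781 and 4643 bp (16.6%). Vps25 had 596 bp in replicate 2 only. The 2 ATPases that take the ESCRT machinery apart, Vps4a and Vps4b, were both marked. Vps4a had 3118, 5682 and 4746 bp covered (32.7%) and Vps4b had 7959, 12860 and 11348 bp (34.7%). They had like shares but stood at ranks 3613 and 475 by fold.

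The 4 VPS13 proteins form long channels that move lipids between membranes, and their genes are among the longest of the set. All were marked, over small shares of their length. Vps13a had 10752, 12769 and 12358 bp covered (7.46%) and Vps13c had 13345, 28107 and 24707 bp (15.9%). Vps13b, of 560070 bp, had 5568, 29373 and 17186 bp (3.07%), and Vps13d had 4103, 37531 and 12174 bp (5.47%). The replicates of Vps13d shared 10.9% of the bases covered in either, the lowest share among the 53 genes marked in both. In Vps13b the last covered base of the replicated list lay 47021 bp from the start.

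Of the last 3 genes, Vps45 controls SNARE proteins on early endosomes and had 1780, 3200 and 2500 bp covered (4.26%). Vps72, the chromatin protein, had 1428, 3376 and 2437 bp (20.3%). Vps9d1, which has the VPS9 domain known from activators of Rab5, had 950 bp in replicate 2 only. It lies within the long gene model Gm20388, and its divergent neighbour Zfp276 was marked.

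The 10 unmarked genes fell into 2 sets of equal size. Vps25, Vps28, Snx15, Snx33 and Vps9d1 were marked in replicate 2 alone, with 596, 976, 732, 1621 and 950 bp of their windows covered. The pooled list also marked these apart from Vps25. Snx7, Snx21, Snx22, Snx31 and Vps37d had no base of the window under any of the 4 lists. No unmarked member was marked at another annotated transcript start. The median length of the 10 was 8450 bp, against 39411 bp for the 55 marked genes, and 6 of the 10 had a CpG-rich start.

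Replicate 2 covered more bases than replicate 1 in 61 of the 65 genes and fewer in none, and the other 4 had no covered base in either list. Its list is the larger one over the whole genome, as given above. Over the 53 genes marked in both, the ratio had a median of 1.62 and ranged from 1.01 (Vps18) to 9.15 (Vps13d). The bases called in replicate 1 lay almost wholly inside those of replicate 2, with a median of 100% and a lowest value of 95.8%. The bases shared made up a median of 61.9% of those covered in either replicate. The order of the genes by covered bases was close in both replicates, with a Spearman coefficient of 0.882 over the 53 genes, all of which come from the same pair of libraries.

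Marked members were longer and held more covered bases than marked genes in general. Their median length was 39411 bp, beside 24425 bp over all 6658 marked genes, and their median of covered bases was 12174 bp, beside 6118 bp. The median share covered, 33.3%, was near that of all marked genes, 33.9%. More than 20 kb was covered in 16 of the 55 (29.1%), beside 17.2% of all marked genes, and at least 80% of the gene in 9 (16.4%), beside 9.84%. The median fold was 14.5, beside 11.9. Genes without a covered base in the window of a replicate list have no fold there. In replicate 1 this leaves out Snx14 and Vps8 among the marked members. Among the genes with a fold, the medians were 7.90 beside 7.50 in replicate 1 and 20.1 beside 15.7 in replicate 2. The medians of members and of all marked genes were thus nearly equal in replicate 1, over fewer genes than in the replicated list. Over all the same genes the replicate lists gave medians of 6517 beside 3710 covered bases in replicate 1 and 13074 beside 7434 in replicate 2. These medians describe the genes, and no test of their difference was made.

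The Snx and Vps genes differed in how much was covered. The median marked Snx gene had 19602 bp covered, 50.3% of its length, and the median marked Vps gene 11348 bp, 26.1% of its length. Of the 16 genes with more than 20 kb covered, 12 are Snx genes. Among the 55 marked members, longer genes had more covered bases (Spearman coefficient 0.414) and a smaller share covered (-0.547); gene length enters both measures.

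**Figure D3:**
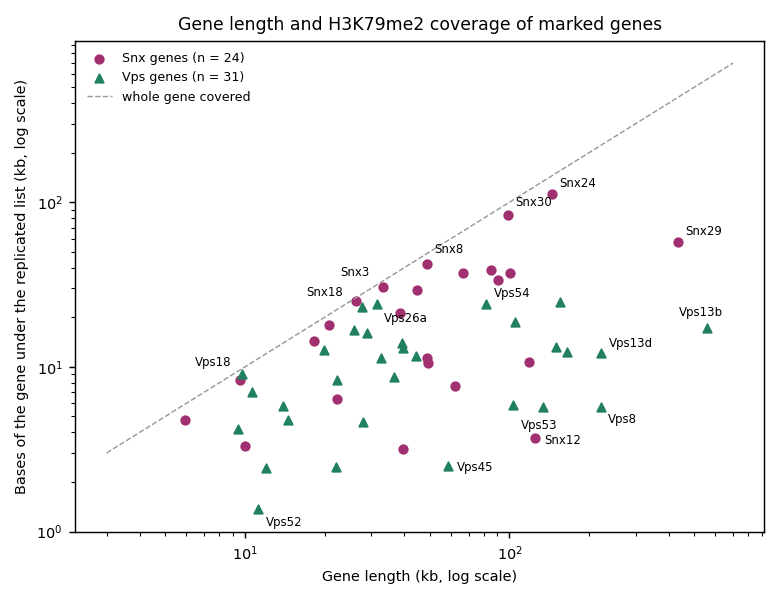
Bases under the replicated list against gene length, both in kb on log scales, for the 24 marked Snx genes (circles) and the 31 marked Vps genes (triangles); the dashed line is full coverage. Snx3, Snx18 and Vps18 lie close to the line, and Vps13b and Snx12 lie far below it.

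The mark began downstream of the start. The first covered base of the 55 marked members lay at a median of 368 bp from the outermost start, and at 377 bp over all marked genes. In the replicated list 5.17% of the bases in the last 250 bp before the start were covered, then 25.5% of the first 250 bp of the gene. Coverage was highest, at 98.2%, between 1500 and 1750 bp, and was 59.5% in the last bin before 10 kb among the 51 genes that long. Over all marked genes the same bins had 6.64%, 20.1%, 90.6% and 45.4%. Within the first 3 kb these values are in part set by the rule that made a gene marked. Exons made up 5.29% of the covered bases and 8.28% of all bases of the 55 genes, so the covered bases were mostly intronic.

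**Figure D4:**
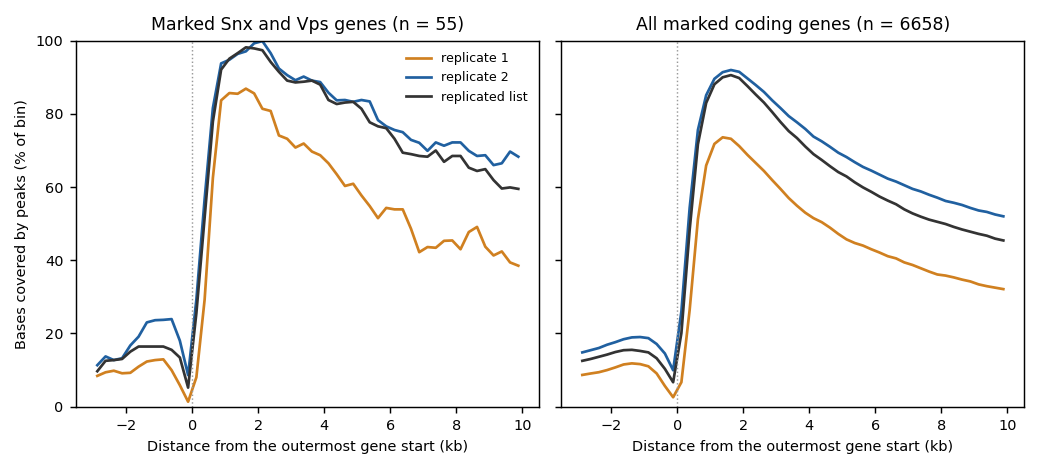
Share of bases covered by peaks in bins of 250 bp, in percent, from 3 kb before to 10 kb after the outermost start, for the 55 marked members (left) and all 6658 marked coding genes (right), with 1 line for each replicate and 1 for the replicated list. In all lists coverage is low just before the start and highest within the first 3 kb after it, and replicate 1 stays below replicate 2.

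Upstream of the start, 11 of the 55 marked members had covered bases within 3 kb in the replicated list, 8 in replicate 1 and 21 in replicate 2. A coding gene in the opposite direction starts within 1 kb of 12 members. In 5 of the 11 marked members with such a neighbour (Vps52, Snx1, Snx5, Vps26b and Vps35) the neighbour was marked too, and between 2273 and 2935 bp of the upstream 3 kb was covered in the replicated list. In the other 6 (Vps50, Vps53, Vps16, Snx17, Snx25 and Vps29) neither the neighbour nor the upstream 3 kb had a covered base in the replicated list. In replicate 2 the upstream 3 kb held 1266 bp at Snx17, 860 bp at Vps16 and 12 bp at Vps50. A total of 17 marked members overlap another coding gene. Of these, 15 had at least 200 bp covered outside it when the whole gene was counted, and Vps53 and Snx14 had none. Vps37a is among the 15, although the window on which its marking rests lies wholly within Cnot7.

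Of the 65 members 49 had a CpG-rich start (75.4%), beside 44.4% of all coding genes and 79.1% of all marked genes. The 250 bp upstream held a median of 18 CpGs in marked members and 18 in unmarked members, beside 16 in marked and 5 in unmarked coding genes. Among the members, then, the median count of CpGs was equal in marked and unmarked genes. Only 10 members were unmarked, and CpG-rich starts were less frequent among them than among the marked members. Snx7 and Snx20 were printed because their relatives differ from them in the mark, so they show single cases only.

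Motifs were counted in the window from 250 bp before to 50 bp after the start, on both strands. CACGTG, the E-box bound by the TFE family of lysosomal regulators among others, was in 11 of the 65 windows (16.9%), beside 7.75% of all coding genes and 11.4% of all marked genes. The 11 are Vps37b, Vps50, Vps11, Vps16, Vps33a, Snx20, Snx18, Snx2, Snx32, Snx8 and Vps26a. All 11 were marked, beside 84.6% of all 65 members, and a link between the motif and the mark was not tested. TCACGTG, which contains CACGTG and is counted within it, was in 9 windows (13.8%), beside 4.14% and 7.19%. In the printed windows it can be read in Vps26a as tcaCGtg, and Snx20 holds the shorter motif. GAGGAAGT, a site of the macrophage factor PU.1, was in 1 window, that of Snx8 (1.54%), beside 3.23% of all coding genes. A match is a run of letters and was not tested for binding.

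The proteins that work with the members were followed in a list of 75 further coding genes. Of these, 65 were marked (86.7%), beside 30.3% of all coding genes, with 61 in replicate 1 (27.2% of all) and 70 in replicate 2 (35.6% of all). All 12 genes of the CCC complex, which acts with the retriever, were marked. The other ESCRT genes had 19 of 21 marked, and the unmarked ones were Chmp4b and Chmp4c. Of the WASH complex, which builds actin on endosomes with retromer, 4 of 5 were marked. Washc3 was not, but the list of replicate 2 marked it. Endosomal tethering and fusion genes had 17 of 19 marked, without Tgfbrap1, the CORVET partner of Vps8, and Mon1a. Mon1a was marked in replicate 2 and not in replicate 1. Of the phosphoinositide kinases and phosphatases 9 of 11 were marked, without Rubcn and Mtm1. The cargo receptors had the lowest share, 4 of 7, and the unmarked Sort1, Sorl1 and Lrp10 were marked in replicate 2 alone.

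Some of the unmarked partners had covered bases farther into the gene. Chmp4b had 35793 bp covered in the replicated list (83.1% of the gene), Tgfbrap1 20138 bp, Mtm1 12632 bp and Rubcn 11310 bp. None of them had a covered base in the first 3 kb after the outermost start. When any annotated transcript start was allowed, 69 of the partners were marked, against 65 at the outermost start. The state of some unmarked partners with covered bases therefore depends on the start used. No unmarked Snx or Vps gene was of this kind in the replicated list, since none of the 10 had a covered base there.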

How the data were processed

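H3K79me2 ChIP-seq peaks of 2 replicates were used. Per the labels and deposited text notes, the authors made a peak list of each replicate, a pooled list and the replicated list on mm10. Not given in the sources used here are the aligner, the peak caller and its settings, and how replicated peaks were chosen. Each deposited list gives, as the authors' values, a fold over control for each peak, which was used to rank genes and filter peaks, and a −log10 p-value and −log10 q-value, on which no result rests. Peaks were merged within a list and set against GENCODE M21 protein-coding genes of the 19 autosomes and the sex chromosomes, with Python 3.11.15, numpy 2.4.6 and pandas 2.3.3, in code tested on simulated data. A gene's fold is the highest among the peaks in its window. The members and lists were chosen with earlier results of these data known. Every member is named. Values per list were due for unmarked and replicate-dependent members, the 10 with the most covered bases, the 5 with the highest fold, the retromer, HOPS and CORVET, and paralogues. With 1 group, no test was made. Alternatives were each replicate alone, the pooled list, peaks at or above the median fold, other windows, minimums and starts, and a stricter overlap.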

Additional observations from a re-analysis of the deposited data

How the results depend on the processing

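Of 42 alternative values, 39 stayed within their limit and 3 moved. The limit was the spread of the replicates or, for counts, 1.5 times the count. For the percent of members marked among those overlapping no other coding gene, it was a binomial interval. That interval treats the genes as independent. These limits were wide, so the tally says little about stability. The spread came from the 2 replicate lists, which are themselves among the alternatives, and the count of members cannot exceed 65. The median fold of marked members was 7.90 in replicate 1, beside 14.5 in the replicated list, and still counted as unmoved. Taking each replicate list alone, the median share covered of the marked members ranged from 21.5% to 36.2% around 33.3%, and their median of covered bases from 7715 to 12726 bp around 12174 bp. Keeping peaks at or above the median fold lowered the share of marked coding genes from 30.3% to 22.3%; 44 members remained marked, without Snx14, Snx16, Snx17, Snx19, Snx25, Vps13a, Vps13b, Vps33b, Vps41, Vps72 and Vps8. Restricting the window to the first 1 kb left 50 members, without Snx1, Snx10, Snx25, Snx30 and Vps36. The count was 53 in replicate 1, 60 in replicate 2 and 59 in the pooled list, and 55 with the other windows, minimums and starts. Depth is unknown, so unmarked genes may lie under the limit of detection. No paired analysis was possible because the samples form 1 group.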
